A study of Arabidopsis thaliana with 8 samples.

Results

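EEL (AT2G41070, ENHANCED EM LEVEL, also ATBZIP12 or DPBF4) is a transcription factor gene of the bZIP family on chromosome 2 of Arabidopsis thaliana. It was followed through its probe set, the only 1 of 22246 that the platform annotation assigns to EEL alone; in all, 12849 genes had a probe set of their own. Expression was measured on 8 arrays of seedlings germinated for 2 days, in 4 groups of 2 arrays. They were ahg1-1 on 0.5 uM abscisic acid (ABA), ahg3-1 on 0.5 uM ABA, Columbia wild type on 0.5 uM ABA and Columbia wild type without ABA. The labels describe ahg1-1 and ahg3-1 as ABA hypersensitive mutants, and the mutated genes encode related protein phosphatases of the PP2C class. Seeds were first chilled for 4 days at 4 °C, and germination took place on sucrose-containing (2%) MS plates at 23 °C in long days (16 h light, 8 h dark). Each mutant is represented by a single allele, and neither was grown without ABA. AHG1 and AHG3 themselves had no probe set assigned to them alone, so the genotypes could not be verified from the arrays and these genes were not analysed here. Whether a group's 2 arrays stem from separate cultures is not stated, so p-values measure the spread between arrays, which may be technical.

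ABA builds up in the maturing seed and holds back germination. When the hormone binds its receptors, many PP2C phosphatases of the pathway are inhibited and SnRK2 kinases become active. The kinases phosphorylate bZIP factors of group A, which bind ABA-responsive promoter elements. Whether AHG1 and AHG3 are both inhibited in this way was not tested here. Group A holds ABI5, the main activator of ABA-dependent seed genes at germination, its relatives AREB3 and DPBF2, the ABF factors of vegetative tissue, and EEL. EEL is known from embryos late in seed maturation, and it binds the same elements of the EM1 promoter as ABI5 does. EM1 encodes a late embryogenesis abundant (LEA) protein of the dry seed, and eel mutant seeds contain more EM1 transcript, for which the gene was named.

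EEL stood higher on every array from ABA medium than on both arrays without ABA. In wild type on ABA its log2 values were 6.62 on the array of replicate number 1 and 7.54 on that of number 2. In wild type without ABA they were 4.61 and 5.51. The groups did not overlap, a pattern that 18.4% of all probe sets showed in the same direction. The mean was 7.08 ± 0.65 with ABA and 5.06 ± 0.63 without it (log2, SD, n = 2 each). The difference was 2.02 ± 0.43 (SE) on the log2 scale, or 4.05-fold, with a 95% confidence interval from 1.97-fold to 8.30-fold.

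By limma over all probe sets this difference did not pass the threshold of 0.05 (adjusted p = 0.098, unadjusted p = 0.0027), at which 1.37% of all probe sets were called. Once the replicate number entered the fit as a block, it passed (limma, adjusted p = 0.00092), where 12.6% of all probe sets were called, and the interval narrowed to between 3.02-fold and 5.41-fold. EEL was higher on the array of number 2 in all 4 groups, and without the block this shift counts as error. The difference itself was almost the same within each number, at 2.0 within number 1 and 2.03 within number 2. The gap of 0.026 between them was smaller than the median gap of 0.30 over all probe sets, and 4.81% of probe sets had a smaller one. In size the difference ranked 176 among the higher ones of all 22246 probe sets. RNA came from whole seedlings, so fewer cells with EEL transcript and less transcript per cell cannot be told apart. ABA delays germination, so the stage of germination and the hormone cannot be told apart either.

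**Figure D1:**
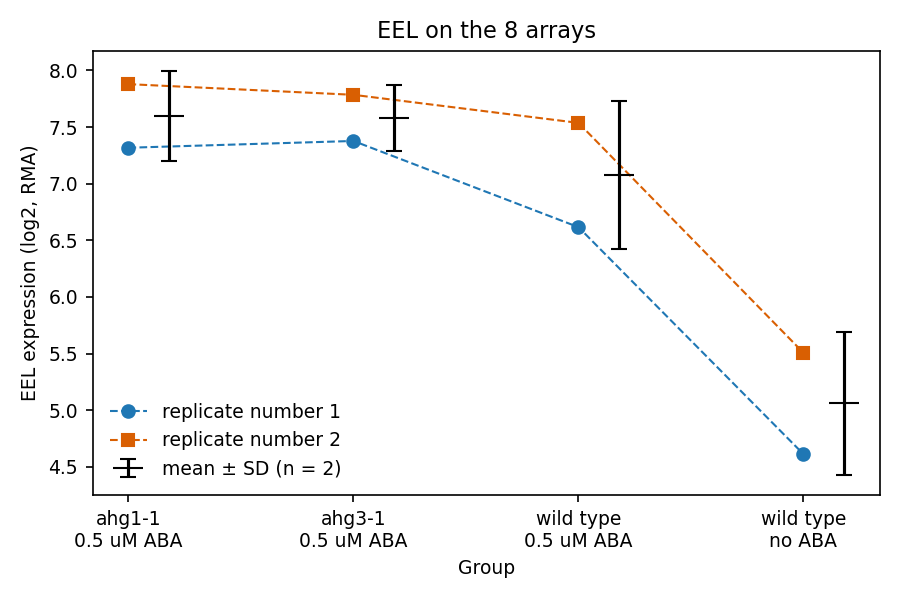
EEL expression (log2, RMA) on each of the 8 arrays by group, with dashed lines joining arrays of the same replicate number and black bars giving the group mean ± SD (n = 2). All 6 arrays from ABA medium sit at 6.62 or above and both arrays without ABA at 5.51 or below, and number 2 lies above number 1 in every group.

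In ahg1-1 on ABA the log2 values of EEL were 7.32 and 7.88, against 6.62 and 7.54 in wild type on ABA. The lower ahg1-1 array lay between the 2 wild-type arrays, so the groups overlapped, whereas 11% of all probe sets had both ahg1-1 arrays above both wild-type ones. The mean was 7.60 ± 0.40 in ahg1-1 and 7.08 ± 0.65 in wild type (log2, SD, n = 2 each), a difference of 0.52 ± 0.43 (SE) that did not pass (limma, adjusted p = 0.999995). The 95% confidence interval ran from a fold of 0.70 to one of 2.94, so neither no difference nor a level nearly 3-fold that of wild type lies outside it. With the block the interval ran from 1.07-fold to 1.92-fold, at an adjusted p of 0.54 (limma). Within the numbers the differences were 0.70 and 0.34, both positive.

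In ahg3-1 on ABA the log2 values were 7.38 and 7.78, against the same 6.62 and 7.54 in wild type. Here too the groups overlapped, and 7.39% of all probe sets had separate groups with ahg3-1 higher. The ahg3-1 mean of 7.58 ± 0.29 (log2, SD, n = 2) exceeded that of wild type by 0.50 ± 0.43 (SE), which did not pass (limma, adjusted p = 0.999953; interval from a fold of 0.69 to one of 2.91). The differences were 0.76 within number 1 and 0.25 within number 2. Both mutant comparisons use the same wild-type arrays, so they are not independent of each other. Taking both mutants as 1 mean, they exceeded wild type on ABA by 0.51 ± 0.38 (limma, adjusted p = 0.999893).

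Of all probe sets 0% were called in each of these mutant comparisons, and with the block 0.0135% for ahg1-1 and 0% for ahg3-1. At an unadjusted p below 0.05 lay 326 probe sets for ahg1-1 and 18 for ahg3-1, and EEL was in neither set. With the replicate number as a block the unadjusted p of EEL was 0.022 for ahg1-1, 0.025 for ahg3-1 and 0.012 for the mean of both (limma). In these blocked fits 8.62%, 4.41% and 8.58% of all probe sets lay below an unadjusted p of 0.05. The adjusted p-values of EEL were 0.54, 0.88 and 0.58 (limma with the block). In fits without the block, the size of the mutant differences hung on the wild-type arrays. Without wild type on ABA number 1 they came to 0.06 in ahg1-1 and 0.04 in ahg3-1, and without number 2 to 0.98 and 0.96. These fits set mutant arrays of both numbers against 1 wild-type array, so the shift between numbers enters them. Within numbers 1 and 2 the differences were 0.70 and 0.34 in ahg1-1 and 0.76 and 0.25 in ahg3-1.

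The 2 mutants lay close together. EEL in ahg1-1 minus ahg3-1 was 0.02 ± 0.43 (SE) on the log2 scale, at -0.06 within number 1 and 0.09 within number 2 (limma, adjusted p = 0.99998). The interval reached from a fold of 0.49 to one of 2.08. With the block, where 0.0045% of all probe sets were called, it reached from 0.76 to 1.35. Differences within these intervals are not excluded with 2 arrays a group.

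Set against untreated wild type, EEL passed the test in both mutants. These comparisons differ in genotype and in ABA together. The level in ahg1-1 on ABA was 5.81-fold that of wild type without ABA, a log2 difference of 2.54 ± 0.43 (SE) with an interval from 2.83-fold to 11.9-fold (limma, adjusted p = 0.025), where 6.03% of all probe sets were called (26.7% with the block). The arrays did not overlap, as for 25.1% of probe sets. The level in ahg3-1 on ABA was 5.74-fold that of the same untreated arrays, a log2 difference of 2.52 ± 0.43 (limma, adjusted p = 0.033), where 3.69% were called (23.8% with the block). Here 23.7% of probe sets had separate groups in this direction. Both calls depended on single arrays and held in 2 of 8 fits that leave out 1 array, those without either wild-type array on ABA. Without untreated wild type number 1 the ahg1-1 difference was 2.09 (limma, adjusted p = 0.11) and without number 2 it was 2.99 (adjusted p = 0.055). It was 2.82 without ahg1-1 number 1 (adjusted p = 0.087), 2.26 without number 2 (adjusted p = 0.15), and 2.54 without either ahg3-1 array (adjusted p = 0.055). For ahg3-1 the adjusted p was 0.15 and 0.069 without the untreated arrays, 0.16 and 0.21 without its own arrays and 0.064 without either ahg1-1 array. The fits without 1 array had no block and fewer residual degrees of freedom. Leaving out an array of a compared group also lets the shift between numbers into the difference. With the block and all 8 arrays the adjusted p of EEL was 0.00017 in ahg1-1 and 0.00024 in ahg3-1 (limma). Whether these blocked calls hold without single arrays was not tested. Without the block EEL passed in the mutants and not in wild type against the same untreated arrays. This does not show a difference between genotypes, since the direct mutant comparisons did not pass.

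**Figure D2:**
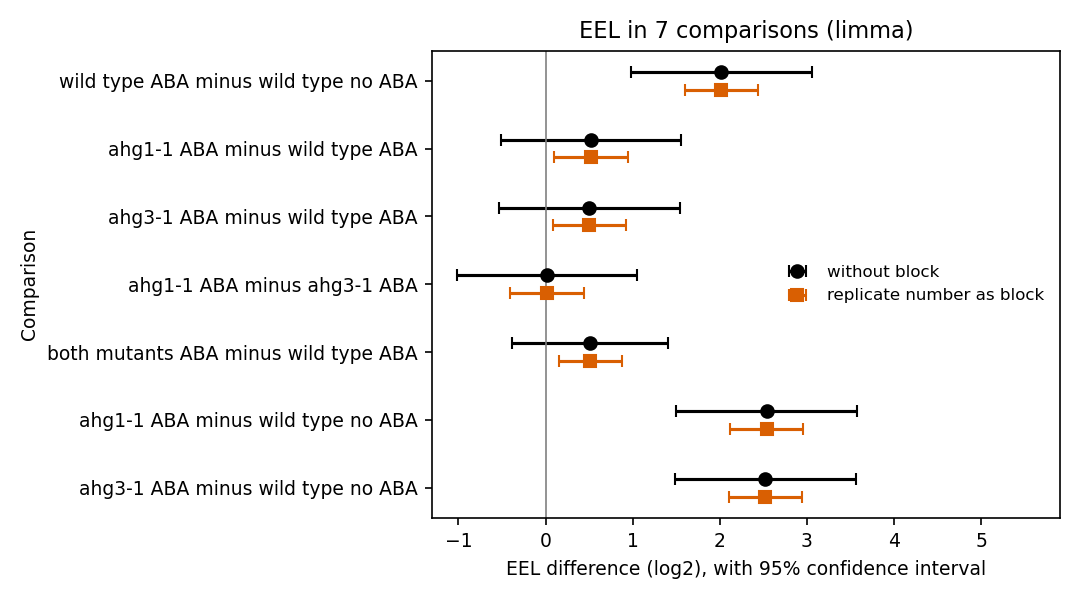
Differences of EEL (log2) in 7 comparisons, with 95% confidence intervals from limma without a block (black circles) and with the replicate number as a block (orange squares). The 3 comparisons against wild type without ABA lie between 2.02 and 2.54, while the 4 among groups on ABA lie between 0.02 and 0.52.

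By group mean the order of EEL levels was ahg1-1 on ABA, ahg3-1 on ABA, wild type on ABA and wild type without ABA. The difference between the neighbours ahg1-1 and ahg3-1 did not pass, and neither did that between ahg3-1 and wild type on ABA. With the block the latter had an interval from 1.06-fold to 1.90-fold, at an adjusted p of 0.88 (limma). Within each number both mutants stood above wild type on ABA and this in turn above untreated wild type, an order that 10.3% of all probe sets showed. All 6 ABA arrays stood above both untreated arrays, as they did for 13.8% of probe sets.

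The array of number 2 exceeded that of number 1 by 0.56 in ahg1-1 on ABA, 0.41 in ahg3-1 on ABA, 0.92 in wild type on ABA and 0.89 in wild type without ABA (log2). The median shift over all probe sets lay between -0.09 and -0.01 in the 4 groups, so EEL moved against it. Of all probe sets 9.0% shifted further upwards than EEL in untreated wild type and 19.1% in ahg3-1. Markers of green tissue, as a list, were measured by PSAN, a photosystem I subunit, and PRK, an enzyme of the Calvin cycle, 2 of 5 listed genes. Their mean log2 value was 5.84 and 5.20 in ahg1-1, 6.05 and 5.61 in ahg3-1, 8.17 and 6.18 in wild type on ABA and 11.4 and 11.2 in wild type without ABA, for numbers 1 and 2. Both fell with ABA (PSAN by 4.74 and PRK by 3.57 on the log2 scale; limma, adjusted p = 0.029 and 0.041), and whether these 2 calls hold without single arrays was not tested. Their mean moved opposite to EEL between groups and, from number 1 to number 2, in all 4 groups. The untreated arrays differed by 0.89 in EEL and by less than 0.3 in the mean of these markers. Of the other markers, BAN of the seed coat (1 of 5 listed) lay between 5.33 and 6.29 on all arrays, and the mean of the root hair genes EXPA7 and EXPA18 (2 of 3 listed) ranged from 5.23 in ahg3-1 number 2 to 8.42 in wild type on ABA number 1. Endosperm and guard cell markers had 0 measured members of 2 listed each. The part of these tissues in the EEL values was not tested.

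The bZIP family was listed with 55 loci, of which 20 had a probe set of their own. By limma 0 of the 20 passed for ABA in wild type, beside 1.37% of all probe sets. Below an unadjusted p of 0.05 lay 2 of the 20, EEL and BZIP60, a share of 10% beside 12.8% of all probe sets. With the replicate number as a block these 2 passed as higher, beside 12.6% of all probe sets called in either direction. The 20 genes had a median difference of 0.06 on the log2 scale, against 0.05 over all probe sets, and ran from -0.71 (BZIP34) to the 2.02 of EEL.

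Group A itself had 4 measured members of 13 listed. FD, which acts with the florigen FT in the shoot tip, stood at 5.17 and 5.15 in wild type on ABA and at 5.31 and 4.59 without ABA. Its difference of 0.21 ± 0.27 (SE, log2) did not pass (limma, adjusted p = 0.92) and was -0.14 within number 1 and 0.56 within number 2. AT5G44080 had 4.75 and 5.13 with ABA, against 4.81 and 5.07 without it. AT5G42910 had 3.17 and 2.90 with ABA, against 3.17 and 2.89 without it. The differences of these 2 loci were below 0.01 in size on the log2 scale, although the probe set of AT5G42910 had values of 2.89 to 3.19, close to the array minima of 2.38 to 2.53. Of the 4 measured members of group A, EEL alone had separate ranges on the 2 media. Over all probe sets 18.4% had separate ranges with ABA higher. ABI5, AREB3, DPBF2, GBF4 and the ABF genes had no probe set assigned to them alone and were not analysed here.

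Outside group A, BZIP60, a membrane-bound factor of the response to unfolded proteins in the endoplasmic reticulum, had 9.18 and 8.74 in wild type on ABA, against 7.94 and 7.75 without ABA (log2). Its groups did not overlap. The difference of 1.12 ± 0.34 (SE) did not pass without the block (limma, adjusted p = 0.21) and did with it (adjusted p = 0.0076). Unlike EEL, BZIP60 was lower on the number 2 array in every group. BZIP53, a partner of group C factors on seed storage promoters, differed by 0.15 ± 0.35, and HYH, the light-signalling homologue of HY5, by -0.39 ± 0.91, neither past the threshold (limma, adjusted p = 0.97 for each). In the mutants on ABA 0 of 20 bZIP genes passed against wild type by limma, with or without the block, and 0 lay below an unadjusted p of 0.05 without it. The smallest p among bZIP genes outside group A belonged to BZIP17 in ahg1-1 (0.26 ± 0.20) and to BZIP61 in ahg3-1 (0.50 ± 0.37). Against untreated wild type BZIP60 differed by 1.32 in ahg1-1 and 1.37 in ahg3-1 (limma, adjusted p = 0.076 and 0.084, or 0.0019 and 0.0021 with the block). EEL was the 1 of 20 bZIP genes called there in each mutant without the block. Over all probe sets 6.03% were called in ahg1-1 and 3.69% in ahg3-1. With the block 4 bZIP genes were called as higher and 1 as lower in ahg1-1, beside 14.7% and 12% of all probe sets. These were EEL, BZIP60, BZIP17 and AT1G06070 as higher and BZIP34 as lower (limma with the block, adjusted p = 0.012, 0.038 and 0.010 for the last 3). In ahg3-1 the block gave EEL, BZIP60 and BZIP17 as higher and BZIP34 as lower, beside 13.2% and 10.6% of all probe sets.

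**Figure D3:**
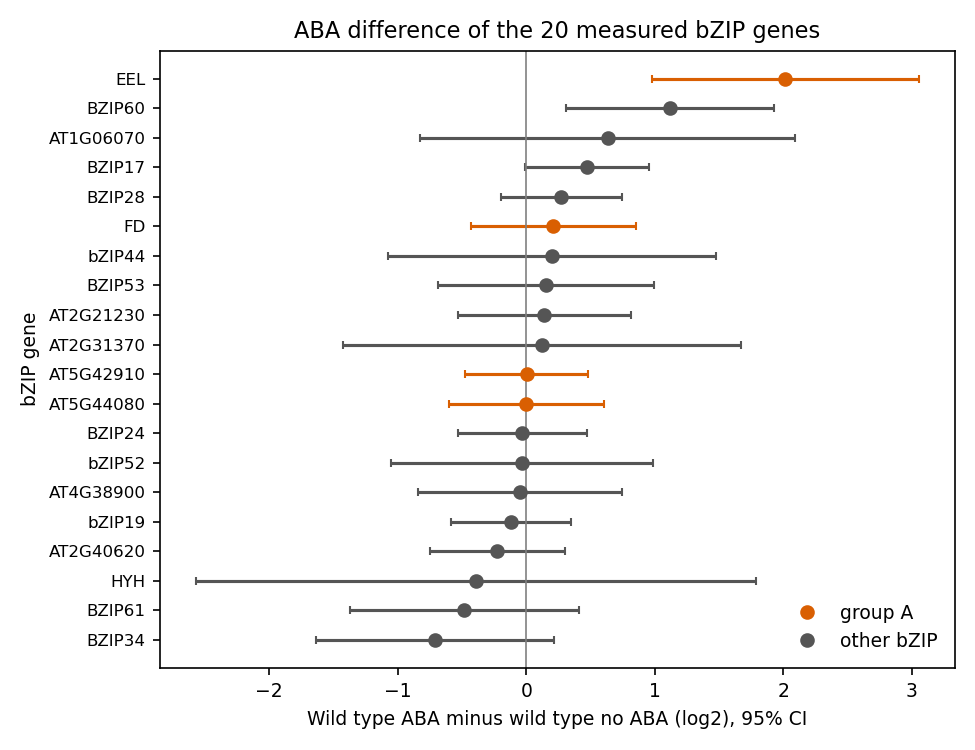
Differences between wild type on ABA and wild type without ABA (log2) for the 20 measured bZIP genes, with 95% confidence intervals from limma, group A in orange and other bZIP genes in grey. EEL at 2.02 and BZIP60 at 1.12 have intervals above 0, and the other 3 group A genes lie at 0.21 or below.

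In a list of 7 genes known as targets or partners of EEL or as ABA marker genes, GI was the single one measured. GI encodes GIGANTEA, a clock protein known to work with EEL on the promoter of NCED3, a gene of ABA synthesis. It stood at 6.41 and 6.36 in wild type on ABA and at 6.27 and 6.72 without ABA, so the groups overlapped. The difference of -0.11 ± 0.22 (SE, log2) did not pass (limma, adjusted p = 0.97). In the mutants GI had 6.53 and 6.62 in ahg1-1 and 6.48 and 6.74 in ahg3-1, which differed from wild type on ABA by 0.19 and 0.23 and did not pass. EM1, its relative EM6, NCED3, RAB18, RD29A and RD29B had no probe set of their own and were not analysed here. The same held for all 25 listed genes of ABA perception and signalling and for all 9 listed seed regulators such as ABI3, FUS3 and LEC1.

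EM1 and EM6 belong to the LEA genes, of which 35 of 51 listed loci were measured. With ABA in wild type 15 of the 35 rose, 0 fell and 20 did not pass (limma, adjusted p below 0.05), where 0.692% of all probe sets were called as higher and 0.679% as lower. The list had a median of 3.19 on the log2 scale, against 0.05 over all probe sets, and 19 of 35 members had a larger difference than EEL. The largest were those of AT3G17520 (6.67 ± 0.50) and LEA18 (6.31 ± 0.93), followed by AT4G36600 (6.24 ± 0.81) and AT4G21020 (6.10 ± 0.63). With the block 21 passed as higher and 0 as lower, beside 6.1% and 6.48% of all probe sets. The count of 15 depended on single arrays: it was 3 and 6 without untreated wild type number 1 and 2, 6 without wild type on ABA number 2, 18 without its number 1, and 8 without any 1 mutant array. Against untreated wild type 20 of 35 LEA genes passed as higher in ahg1-1 and 18 in ahg3-1, with 0 lower. Over all probe sets 3.05% were called as higher and 2.98% as lower in ahg1-1, and 1.79% and 1.9% in ahg3-1. With the block 24 LEA genes passed as higher and 1, COR47, as lower in each mutant. Of all probe sets the block called 14.7% as higher and 12% as lower in ahg1-1, and 13.2% and 10.6% in ahg3-1. The same 4 genes as for ABA in wild type had the largest differences, between 6.73 and 7.26. In the mutants against wild type on ABA 0 of 35 passed by limma, while 3 lay below an unadjusted p of 0.05 in ahg1-1 and 0 in ahg3-1, beside 1.47% and 0.0809% of all probe sets. With the block these counts were 13 and 5, beside 8.62% and 4.41% of all probe sets, and again 0 of 35 passed after adjustment. The list medians there were 0.49 and 0.46, against 0.01 and 0.0027 over all probe sets and 0.52 and 0.50 for EEL. In ahg1-1 the smallest p was that of AT3G53040 (2.43 ± 0.51), and in ahg3-1 that of AT3G22490 (1.46 ± 0.72).

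**Figure D4:**
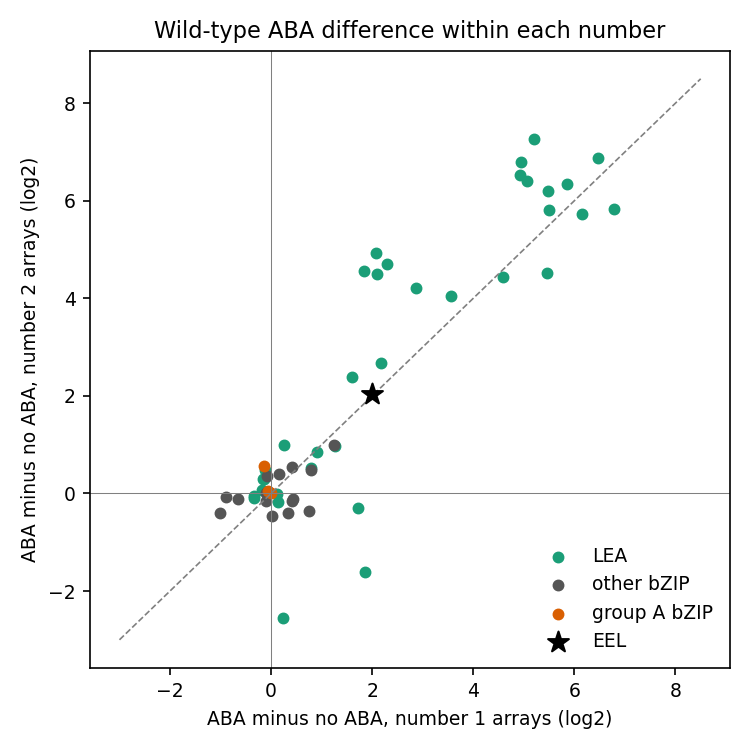
Difference between wild type on ABA and wild type without ABA (log2) on the arrays of number 1 (x axis) and number 2 (y axis) for LEA genes (green), bZIP genes (grey, group A in orange) and EEL (black star), with equality as a dashed line. EEL lies next to the line at 2.0 and 2.03, while LEA genes reach 6.79 within number 1 and 7.27 within number 2.

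The named probe sets whose values over the 8 arrays ran most like those of EEL were ranked by the root-mean-square difference of log2 values after each profile's own mean was removed. Over 12997 named probe sets the median of this distance was 1.12, and the 8 nearest lay between 0.20 and 0.27. They were AT4G24110, AT2G25980, DI21, AT1G14930, AT5G65750, AT1G26665, DELTA-OAT and AT4G33700, in this order. Over all probe sets, with those not assigned to a single gene, AT4G24110 ranked 8 and AT4G33700 ranked 22. DI21 encodes a drought-induced LEA protein, and DELTA-OAT encodes ornithine delta-aminotransferase, an enzyme of arginine and proline metabolism.

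AT4G24110, the nearest named one, had 7.68 and 7.71 in ahg1-1, 7.68 and 7.92 in ahg3-1, 7.05 and 7.78 in wild type on ABA and 4.88 and 6.05 in wild type without ABA (log2). Like EEL it was lowest on the untreated number 1 array, and its 2 untreated arrays stood below all others. DI21 had 11.3 and 11.4 in ahg1-1, 11.5 and 11.7 in ahg3-1, 10.5 and 11.7 in wild type on ABA and 8.35 and 8.98 without ABA. Its ABA difference in wild type was 2.43 ± 0.40 (SE), close in size to that of EEL, and passed (limma, adjusted p = 0.047), a call that held in 1 of 8 fits without 1 array, that without wild type on ABA number 1 (2.99, adjusted p = 0.017). In the other 7 its difference lay between 1.86 and 2.74 (limma, adjusted p between 0.108 and 0.203). The 8 genes were chosen for their likeness on these arrays, so their values describe the choice. Their differences ran from 1.49 to 2.43 for ABA in wild type, from 0.07 to 0.79 in ahg1-1 against wild type on ABA and from 0.28 to 0.67 in ahg3-1. For ABA in wild type 3 of the 8 passed by limma, DI21, AT1G14930 and AT1G26665, beside 1.37% of all probe sets. With the block all 8 did, beside 12.6%.

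The set depended on the measure. When the shift between numbers 1 and 2 was removed from each profile, 2 of the 8 were among the nearest 8, and when each profile was scaled to its own spread, which ignores the size of a change, 0 were. By the first measure the nearest bZIP gene was AT1G06070 at a distance of 0.75, with rank 696, followed by BZIP60 at 0.77.

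**Figure D5:**
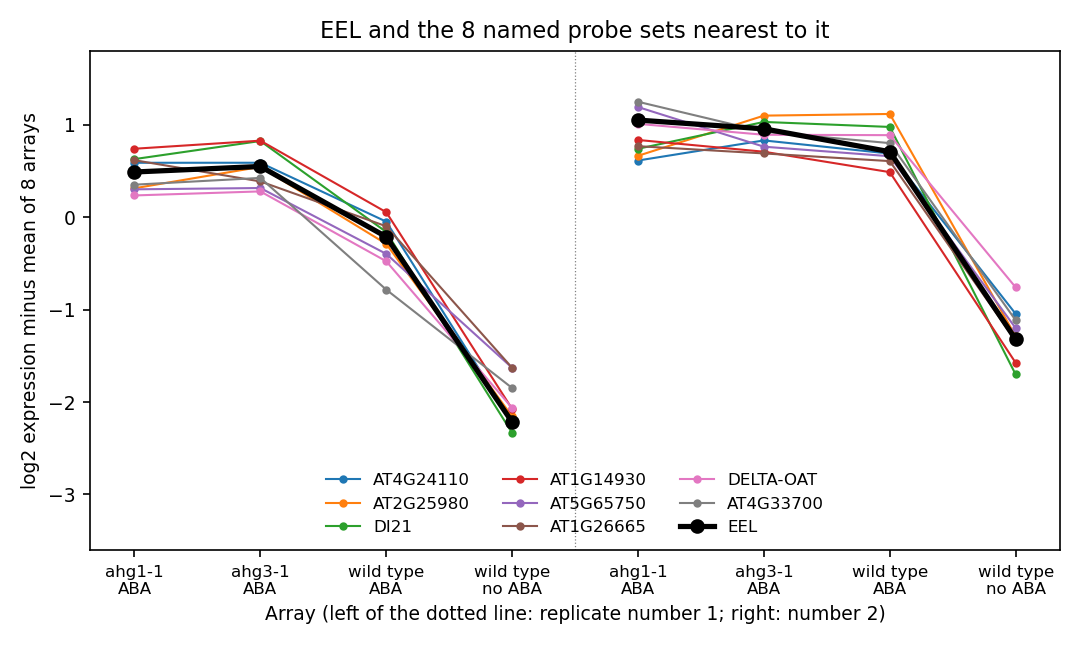
Log2 expression minus the mean of the 8 arrays for EEL (thick black line) and the 8 named probe sets nearest to it, with the 4 arrays of replicate number 1 left of the dotted line and those of number 2 right of it. All 9 profiles are lowest in wild type without ABA and lower there on number 1 than on number 2.

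On chromosome 2 the annotated span of EEL overlaps that of its neighbour AT2G41060 and that of AT2G09215, an RNA gene without a probe set of its own (TAIR10.1 gene table). Which part of EEL its probes cover, and whether they tell its 5 RefSeq transcripts apart, is not given in the sources used here. AT2G41060 had 7.31 and 7.67 in wild type on ABA, against 7.16 and 7.01 without ABA. Its difference of 0.41 ± 0.23 (SE, log2) was smaller than that of EEL and did not pass (limma, adjusted p = 0.62). In ahg1-1 and ahg3-1 it differed from wild type on ABA by -0.02 and 0.09.

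Of the 3 nearest measured genes on each side of EEL, none stood higher with ABA by a margin that passed the test. On the side of AT2G41060, AT2G41050 differed by -0.17 and AT2G41040 by -0.10 with ABA. On the other side AT2G41080 differed by 0.38, AT2G41090 by -2.29 ± 0.97 and AT2G41120 by -0.998 ± 0.23, and none of the 6 passed (limma, adjusted p between 0.115 and 0.977). AT2G41090 had 6.61 and 3.65 in wild type on ABA, against 7.28 and 7.56 without ABA, so its size rests largely on the array of number 2. With the block AT2G41120 passed as lower (limma, adjusted p = 0.020) and the other 5 did not.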

How the data were processed

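The authors deposited log2 expression for 22246 probe sets on 8 arrays, computed with RMA (background correction, quantile normalization, summary of each probe set) per the submitters' processing notes. No version is given in the sources used here. Array medians lay between 5.91 and 5.97, and 0 pairs of arrays were identical. The number of arrays limits the precision. Groups come from the sample titles, since the free-text descriptions repeat the untreated wording for all samples.

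limma 3.58.1 in R 4.3.3 fitted the 4 group means to all 8 arrays with 4 residual degrees of freedom. P-values were two-sided and Benjamini-Hochberg adjusted over all probe sets, with 0.05 as the threshold for a call. Deviations of same-numbered arrays from their group means correlated with r between 0.50 and 0.84 in 6 of 6 pairs of groups, so blocked values are given beside results whose calls they change. Probe sets were named through the platform annotation and the TAIR10.1 gene table: 12998 had a single gene found there. Alternatives were a fixed or random block, cyclic loess, median centring, a filter on dim probe sets, an intensity trend, only the arrays compared, and leaving out each array. Members and lists were chosen with earlier results of these data known. Named genes were EEL, measured members of the group A bZIP and EEL-linked lists, up to 4 called members per direction (or the smallest p) of other bZIP and LEA genes, the 8 nearest profiles and the 3 nearest measured genes on each side. BZIP53, HYH, BZIP34, BZIP17 against untreated wild type, COR47 and AT1G06070 were named after their values were seen. The promoter motif search was not run.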

Additional observations from a re-analysis of the deposited data

How the results depend on the processing

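The ABA difference of EEL in wild type kept its direction in 15 of 15 alternatives. It passed with the fixed replicate block (2.02, limma, adjusted p = 0.00092) and with the number as a random block (2.02, adjusted p = 0.0015), and in none of the other 13, where the adjusted p ran from 0.067 to 0.41; it ranged from 1.56 to 2.48 without 1 array. The differences of both mutants from untreated wild type held in 7 of 7 alternatives that do not leave out a single array and in 2 of 8 that do, where they ranged from 2.09 to 2.99 for ahg1-1 and from 2.07 to 2.97 for ahg3-1. The mutant differences from wild type on ABA passed in 0 of 15 alternatives and ranged without 1 array from 0.06 to 0.98 (ahg1-1), 0.04 to 0.96 (ahg3-1) and 0.05 to 0.97 (mean of both). EEL in ahg1-1 minus ahg3-1 ranged from -0.26 to 0.298, turning negative at -0.26 without ahg1-1 number 2 and -0.19 without ahg3-1 number 1. With the replicate block or the random block 2 bZIP genes were called, and 0 otherwise. The LEA count of 15 was 4 with only the 4 wild-type arrays and ran from 3 to 18 without 1 array. Over all probe sets the ABA count of 305 was 2799 with the block, 2408 with the random block, 33 with only the 4 arrays and 51 to 388 without 1 array. Among named genes with ABA differences near 0, none of which passed with either sign, the range without 1 array spanned 0 for FD (-0.14 to 0.57), AT5G44080 (-0.19 to 0.19, with 0.13 without untreated number 2), AT5G42910 (-0.13 to 0.14), GI (-0.34 to 0.12), AT2G41050 (-0.54 to 0.197) and AT2G41040 (-0.47 to 0.27, with 0.0044 without wild type on ABA number 2). AT5G42910 was also -0.023 with cyclic loess and -0.0020 with median centring. The cause of these changes was not tested. Among the named genes the block also brought BZIP60, AT2G41120, AT3G22490 and 5 of the 8 nearest profiles past the threshold for ABA in wild type. Fewer arrays leave fewer residual degrees of freedom. The fits without 1 array had no block, so the shift between numbers enters them when an array of a compared group is left out. Depth is not defined for arrays, and the 2 arrays a group limit every value.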
